A study of Homo sapiens with 4 samples.

Results

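The difference between 2 human colorectal cancer cell lines, HCT116 and Caco-2, was described across all genes that could be tested on the study's 4 arrays. The study asked how gene expression changes when BORIS is silenced. BORIS is the protein of CTCFL, a testis relative of the insulator protein CTCF. Here the lines themselves were compared: the 2 HCT116 arrays were set against the 2 arrays labelled Caco-2, with siRNA as a block. One array of each line came from cells given negative control siRNA, and the other from cells given BORIS siRNA, delivered with a lipid reagent for 3 days. No array of untransfected cells was analysed here, so the difference is that between transfected cells. Total RNA was hybridised to Affymetrix PrimeView arrays, which read a transcript mostly near its 3′ end, and the deposited table holds 1 log2 expression value for each probe set and array. For each of 18132 genes the brightest probe set paired with no other gene was used. A gene was tested when that probe set reached the array median, 5.46 to 5.48, on at least 1 array, which left 11165 genes.

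The colonic epithelium renews itself from stem cells at the crypt base that depend on WNT signalling. Their progeny become absorptive enterocytes with a brush border, or secretory goblet, Paneth and enteroendocrine cells. Caco-2 is known for turning into enterocyte-like cells when it grows dense, with brush border enzymes and lipoproteins that enterocytes share with hepatocytes. HCT116 is known as a poorly differentiated line with functional p53 and deficient DNA mismatch repair. A line's identity in expression data is the set of lineage, adhesion, metabolic and silenced genes that stays with it across treatments.

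The labels were checked before the lines were compared. Background was set on each array from 359 probe sets of olfactory receptors, which serve the nose: their 95th percentile, 4.82 to 5.18, was the level below which a value counted as background. Of 13 colon epithelial markers, 10 lay above background on both arrays labelled Caco-2 and 7 on both HCT116 arrays. EPCAM, KRT8, KRT18, KRT19 and CDH1 were above background on all 4 arrays. The intestinal regulator CDX1, the adhesion gene CDH17 and the colon antigen gene GPA33 were at background on all 4. The arrays labelled Caco-2 also lacked signal for genes that Caco-2 is known for. The brush border phosphatase gene ALPI read 4.57 and 4.57 on the 2 Caco-2-labelled arrays and 4.66 and 4.87 on the HCT116 arrays. The fatty acid binding gene FABP1 read 2.93 and 3.04 there, and the apolipoprotein gene APOA1 read 4.88 and 4.70, below background on all 4 arrays except for APOA1 on the HCT116 array with BORIS siRNA, at 5.26. The sucrase gene SI, the lipoprotein genes APOB, MTTP and APOC3, the fibrinogen gene FGA and the liver genes ALB and AFP were below background on all 4. Of 55 measured enterocyte genes, 32 were at background on all 4 arrays, and of 68 measured liver-type plasma protein genes, 35 were. In a check for mixed-up samples, 2 of the 4 libraries did not match their labels. In the enterocyte and liver-type genes above, the data go against the label Caco-2 in part, and these arrays are called the arrays labelled Caco-2 throughout. Caco-2 gains such genes as it grows dense, and whether cell density accounts for their low signal was not tested. A probe set at background does not show that the transcript was absent, and no set of markers that define HCT116 was examined.

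**Figure D1:**
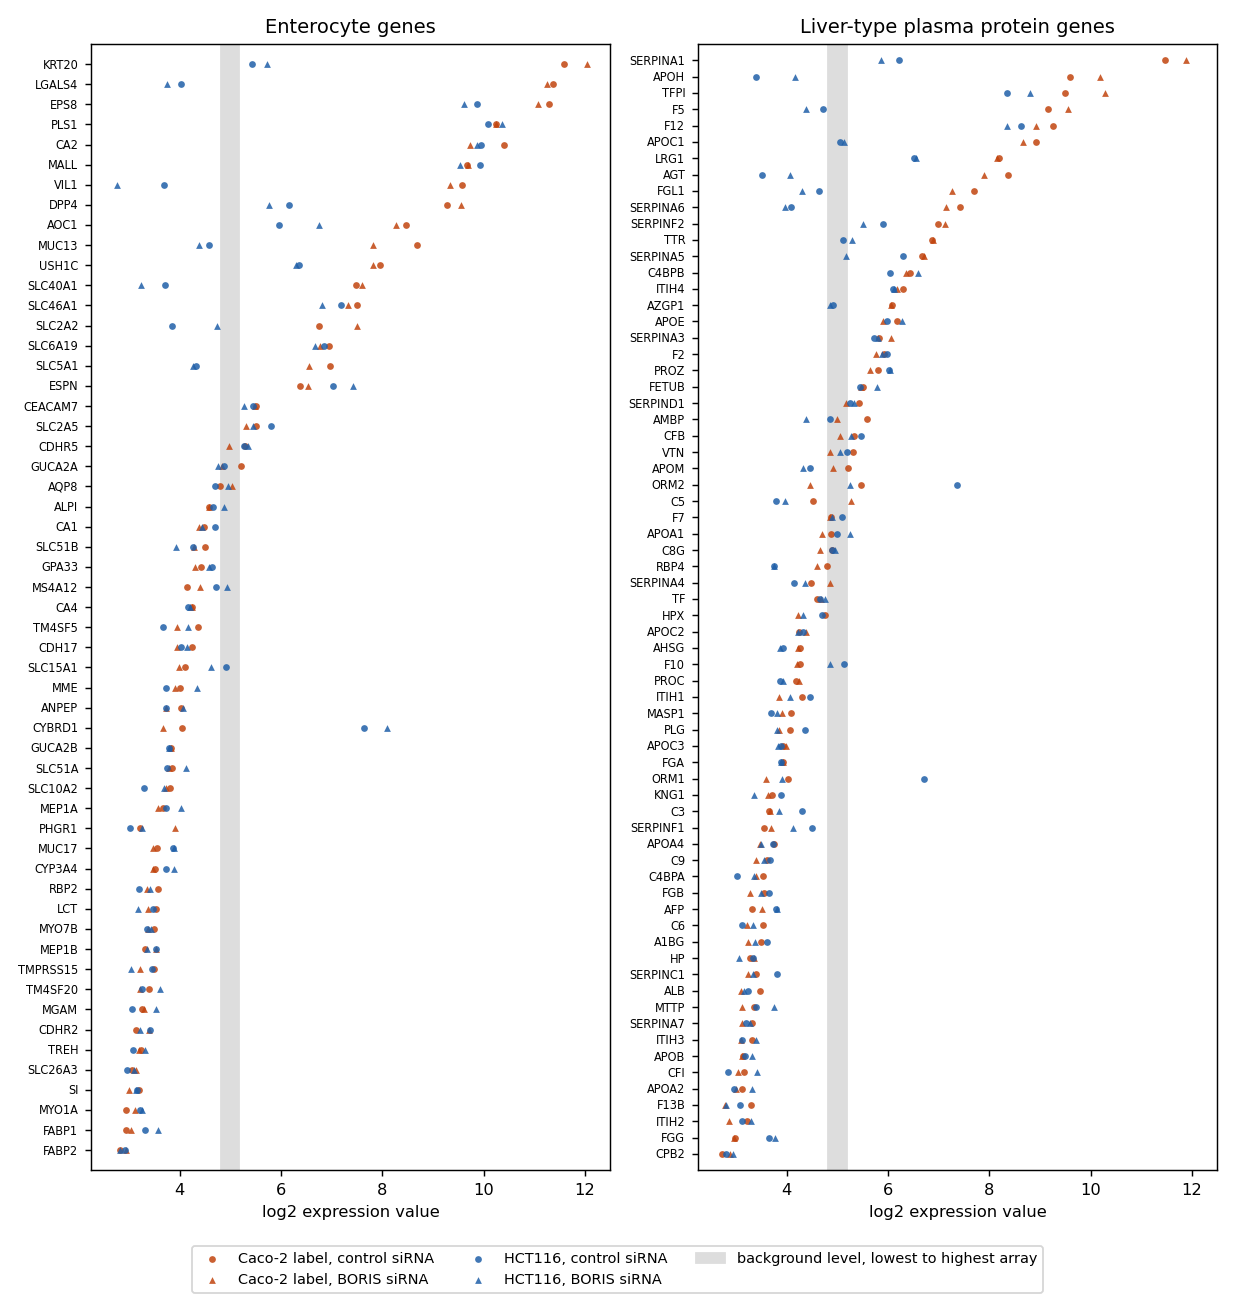
Log2 expression value (x axis) of every measured gene of the enterocyte list (left, 55 genes) and the liver-type plasma protein list (right, 68 genes) on each of the 4 arrays, sorted by the mean of the 2 arrays labelled Caco-2; red marks the Caco-2 label, blue HCT116, circles control siRNA and triangles BORIS siRNA, and the grey band spans the background level of the 4 arrays, 4.82 to 5.18. The upper genes of each panel, from KRT20 and SERPINA1 down, are mostly brighter on the arrays labelled Caco-2, and the lower part of both panels, with ALPI, FABP1, SI, ALB and APOB, lies at background on all 4 arrays.

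Line accounted for most of the variation. Over the tested genes, 91.5% of the sum of squares about each gene's mean lay between the lines, 4.87% between the siRNAs and 3.65% in the disagreement of the 2 siRNA pairs. The SD across genes of the difference between lines was 1.14 with control siRNA and 1.18 with BORIS siRNA, against 0.27 between the siRNAs on the arrays labelled Caco-2 and 0.40 in HCT116. In limma with Benjamini-Hochberg adjustment, 4373 of 11165 genes (39.2%) had an adjusted p under 0.05. Of these, 2161 (19.4% of those tested) were higher in HCT116 and 2212 (19.8%) were higher under the Caco-2 label, and a gene past this threshold is said to be called. Called genes at 2-fold or more numbered 1117 and 1159, and at 16-fold or more 93 and 83. The median difference of all tested genes was 0.01 and the median size 0.43, on the log2 scale. For 201 called genes the 2 siRNA pairs differed by 1 or more. The number called moved when 1 array was left out, and such a fit also dropped the siRNA block. With the block dropped and all 4 arrays kept, 2121 genes were called higher in HCT116 and 2153 higher under the Caco-2 label. With 1 array left out, the residual spread comes only from the line that keeps 2 arrays, which differ in siRNA. The median difference of all tested genes was then 0.02 without the Caco-2-labelled control array and 0.00066 without the Caco-2-labelled BORIS siRNA array. Each line was read on 2 arrays that differ in siRNA, and the fit has 1 residual degree of freedom, so p-values measure only the spread between these arrays, and nothing in the labels says that they came from separate cultures.

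Many differences were of genes read in 1 line alone. Above background on both arrays of 1 line and below it on both arrays of the other were 403 genes in HCT116 and 438 under the Caco-2 label, while 10145 genes were above background on all 4 arrays and 6107 below it on all 4. Of the 403 and 438, 379 and 316 were called. With background set at the array median the numbers were 527 in HCT116 and 378 under the Caco-2 label, so their order depends on that level. Folds for these genes are lower bounds ("at least"), taken from the bright line down to the background level, and the adjusted p is that of the measured values. In bulk RNA, fewer cells that hold a transcript and less transcript per cell cannot be told apart. Of 2694 called genes with at least 2 bright probe sets, 2540 (94.3%) had the same sign in every one of them, and 1679 called genes rested on 1 bright probe set. The technical controls also moved with the line. The 24 poly-A spike-in probe sets averaged 6.78 and 6.71 on the arrays labelled Caco-2 (control, then BORIS siRNA) and 7.57 and 8.44 on the HCT116 arrays. The signal of the ACTB 3′ probe set exceeded that of its 5′ probe set by 1.05 and 0.97 under the Caco-2 label and by 1.34 and 1.47 in HCT116, while for GAPDH the gap was 0.03 and -0.0048, and 0.04 and 0.03. The part of these controls in the gene differences was not tested. GAPDH itself did not pass the test, with a difference of 0.06 ± 0.07 (SE, adjusted p = 0.561 in limma). ACTB did pass and was lower in HCT116, with a difference of -0.78 ± 0.12 (SE, adjusted p = 0.00353 in limma). The targeted gene CTCFL lay below the array median on all 4 arrays, at 5.07, 5.09, 5.07 and 4.93, so it was not tested, and CTCF differed by -0.31 ± 0.18 (SE, adjusted p = 0.226).

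**Figure D2:**
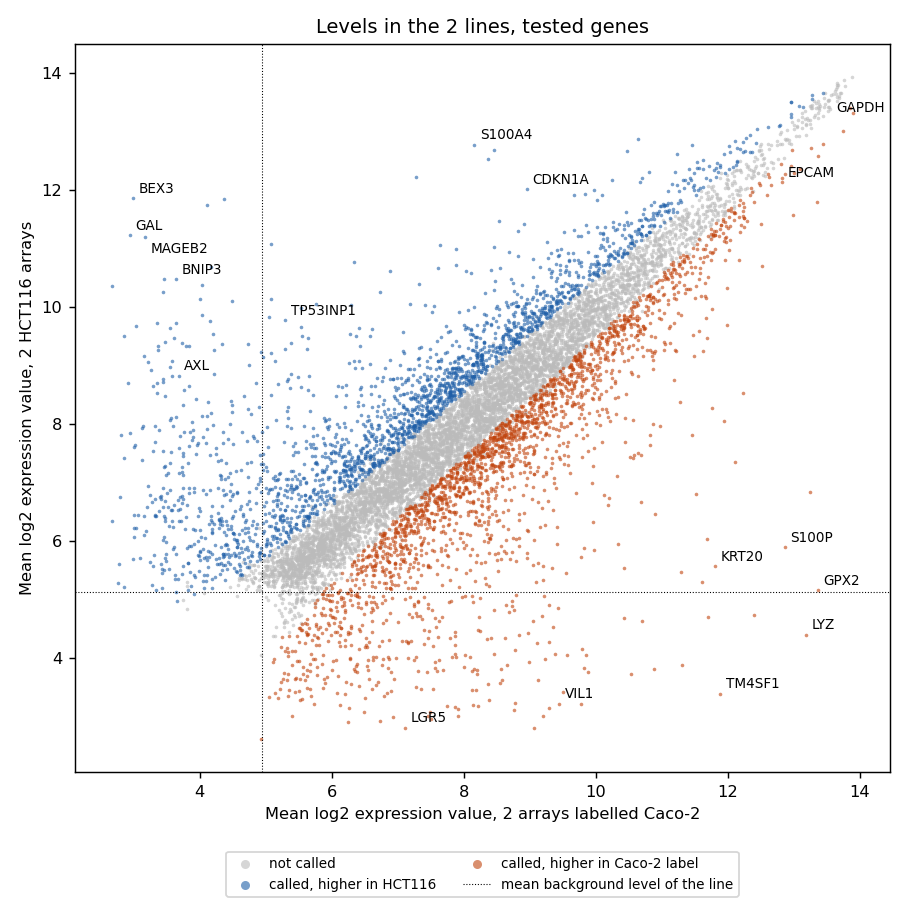
Mean log2 expression value over the 2 arrays labelled Caco-2 (x axis) and the 2 HCT116 arrays (y axis) for the tested genes; blue and red points passed the limma test and grey points did not, and the dotted lines mark the mean background level of each line. Called genes lie on both sides of the diagonal in near equal number, 2161 higher in HCT116 and 2212 higher under the Caco-2 label, and points beyond a dotted line, such as BEX3, MAGEB2 and LYZ, are at background in 1 line.

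From here, 4 values in a row are those of the Caco-2-labelled array with control siRNA, the Caco-2-labelled array with BORIS siRNA, the HCT116 array with control siRNA and the HCT116 array with BORIS siRNA. Differences are log2, HCT116 minus Caco-2 label, with the standard error from limma and the Benjamini-Hochberg adjusted p over all 11165 genes.

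LYZ, GPX2 and TSPAN8 had the largest folds over background under the Caco-2 label. LYZ, the antibacterial enzyme lysozyme of Paneth cells and leukocytes, read 13.26, 13.12, 4.13 and 4.68, a difference of -8.78 ± 0.22 (adjusted p = 5.66e-06). Both HCT116 arrays were at background, so LYZ was at least 265-fold lower there. The gut glutathione peroxidase gene GPX2 read 13.42, 13.31, 4.80 and 5.54 and was at least 264-fold lower in HCT116 (adjusted p = 7.1e-06). The tetraspanin gene TSPAN8 read 12.34, 12.44, 4.19 and 5.30, at least 147-fold lower in HCT116 (adjusted p = 1.09e-05). These 3 genes were among the brightest of the array in one line and near background in the other. The calcium-binding gene S100P, at 12.78, 12.94, 5.90 and 5.90, stood above background in both lines and was 124-fold lower in HCT116 (adjusted p = 5.66e-06). TM4SF1 and TM4SF4, surface proteins of the transmembrane 4 superfamily, were at least 107-fold and 41.9-fold lower in HCT116, TM4SF1 in 3 of its 4 bright probe sets. The remaining 9 of the 15 largest were the matrix metalloproteinase gene MMP7 (at least 94.7-fold), the tight junction pore gene CLDN2 (79.4-fold), the keratin gene KRT20 of differentiated cells (75.7-fold), the galectin gene LGALS4 (at least 71.9-fold), the aldo-keto reductase genes AKR1B10 (85-fold), AKR1B15 (55.8-fold) and AKR1C1 (at least 53.6-fold), the protease inhibitor gene SERPINA1 (49.8-fold) and the mucin-folding gene AGR2 (at least 47.1-fold). AGR2 kept its direction at -3.51 when all its probe sets were averaged, against -6.06 with the brightest. AKR1B10 and AKR1B15 are near-identical copies, as are AKR1C1 and AKR1C2, so the split of signal within each pair is uncertain.

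BEX3, ADIRF and GTSF1 had the largest folds over background in HCT116. BEX3, a small adaptor protein of the brain-expressed X-linked family, read 2.94, 3.04, 11.91 and 11.80, a difference of 8.87 ± 0.18 (adjusted p = 5.66e-06). Both arrays labelled Caco-2 were at background, so BEX3 was at least 121-fold higher in HCT116. ADIRF, a factor named for adipogenesis, read 4.16, 4.56, 11.67 and 12.03 and was at least 120-fold higher (adjusted p = 5.66e-06). GTSF1, a germline factor of the piRNA pathway, read 3.99, 4.23, 11.60 and 11.87 and was at least 111-fold higher (adjusted p = 5.66e-06). These 3 genes were picked by the size of their difference, so the 2 arrays of a line lay far from the other line in each. The neuropeptide genes GAL, at 3.03, 2.86, 11.29 and 11.17, and NMU were at least 78.4-fold and 53.9-fold higher in HCT116. The melanoma antigen gene MAGEB2, normally a testis gene, read 3.36, 2.98, 11.20 and 11.19, at least 76.5-fold higher. Further genes of the 15 were the carboxypeptidase gene CPA4 (at least 61.6-fold), the mitophagy receptor gene BNIP3 (at least 46.6-fold), the chloride channel gene ANO1 (at least 46.5-fold), the collagen gene COL6A1 (at least 43.5-fold), the fatty acid elongase gene ELOVL5 (at least 42.8-fold), the thymosin gene TMSB15A (at least 39.9-fold), the surface antigen gene CD109 (at least 36.6-fold), the embryonic globin gene HBE1 (at least 36.1-fold) and the kallikrein gene KLK7 (33.4-fold). For some of them the size rests on the probe set chosen: BNIP3 differed by 6.84 with the brightest probe set and by 3.48 as a mean of all, CD109 by 6.12 and 4.01, and COL6A1 by 6.35 and 2.12, while leaving out _x_at and _s_at probe sets, whose probes can bind related transcripts, gave smaller values, 2.03 for ANO1 and 4.84 for ELOVL5.

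**Figure D3:**
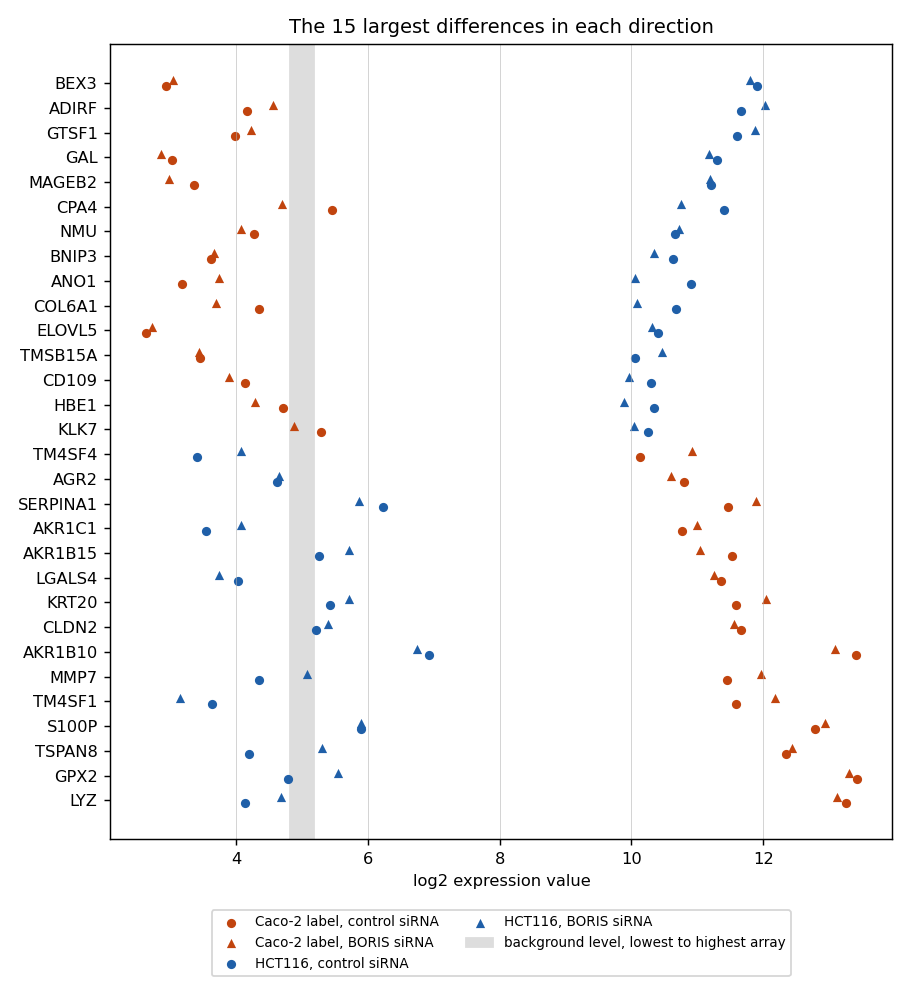
Log2 expression value (x axis) on each of the 4 arrays for the 15 called genes per direction with the largest difference, values at background raised to that level before ranking; red marks the Caco-2 label, blue HCT116, circles control siRNA and triangles BORIS siRNA, and the grey band spans the background level, 4.82 to 5.18. The genes were picked by size, so the 2 arrays of a line lie apart from the other line in each, as for BEX3 at 2.94 and 3.04 against 11.91 and 11.80.

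The promoters of these genes differed in CG pairs, the sites at which promoters can be methylated. The 300 bases from 250 before to 50 after the start were taken from RefSeq (GRCh38.p14), which matched 9228 of the 11165 tested genes, and this description was added after the values were seen. A promoter was called CpG-rich at a GC content of at least 50% and an observed-to-expected CG ratio of at least 0.6. Of the 15 largest genes per direction, 12 and 12 had a promoter, and 6 of the HCT116 genes but 0 of the genes higher under the Caco-2 label were CpG-rich, with 1 to 48 and 1 to 8 CG pairs. Opposite extremes are shown: the 2 HCT116 promoters with the most CG pairs and the 2 promoters of the other line with the fewest. Other HCT116 genes of the 15 were CG-poor too, with 1 pair in CPA4, 5 in NMU and 7 in BEX3. The letters run 5′ to 3′ on the gene's strand with every CG pair in capitals: BNIP3 (chr10:131981874-131982173, minus strand, 48 pairs), ANO1 (chr11:69985657-69985956, plus strand, 36 pairs), CLDN2 (chrX:106899914-106900213, plus strand, 1 pair) and TSPAN8 (chr12:71157950-71158249, minus strand, 1 pair).
BNIP3: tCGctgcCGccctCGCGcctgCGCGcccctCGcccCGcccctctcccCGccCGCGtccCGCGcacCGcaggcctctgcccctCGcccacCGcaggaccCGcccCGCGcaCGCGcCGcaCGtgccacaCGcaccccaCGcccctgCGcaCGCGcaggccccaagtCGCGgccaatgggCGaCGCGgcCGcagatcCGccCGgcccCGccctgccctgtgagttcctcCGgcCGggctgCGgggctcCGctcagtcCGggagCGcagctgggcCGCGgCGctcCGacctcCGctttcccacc
ANO1: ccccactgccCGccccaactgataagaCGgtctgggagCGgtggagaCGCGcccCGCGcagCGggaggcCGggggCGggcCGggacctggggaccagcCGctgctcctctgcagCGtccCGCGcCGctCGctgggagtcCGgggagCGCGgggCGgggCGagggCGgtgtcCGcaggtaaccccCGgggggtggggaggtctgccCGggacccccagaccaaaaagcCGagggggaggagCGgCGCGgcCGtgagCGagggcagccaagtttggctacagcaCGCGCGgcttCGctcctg
CLDN2: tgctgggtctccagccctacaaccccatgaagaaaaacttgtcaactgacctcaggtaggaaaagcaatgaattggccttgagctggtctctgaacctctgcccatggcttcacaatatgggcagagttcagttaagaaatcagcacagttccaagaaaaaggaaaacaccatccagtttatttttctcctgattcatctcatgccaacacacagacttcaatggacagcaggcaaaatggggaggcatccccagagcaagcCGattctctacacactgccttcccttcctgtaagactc
TSPAN8: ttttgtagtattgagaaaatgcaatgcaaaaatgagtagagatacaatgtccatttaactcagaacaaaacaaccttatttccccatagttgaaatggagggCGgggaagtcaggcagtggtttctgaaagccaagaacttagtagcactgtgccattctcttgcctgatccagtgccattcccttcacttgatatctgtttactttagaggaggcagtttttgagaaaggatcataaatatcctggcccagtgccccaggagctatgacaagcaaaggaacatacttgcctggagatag
Over all tested genes with a promoter, 80.6% were CpG-rich. Among called genes above background on all 4 arrays the share was 84.0% for those higher in HCT116 and 84.4% for those higher under the Caco-2 label. Among called genes at background in the other line it was 201 of 292 (68.8%) for HCT116 and 124 of 247 (50.2%) for the Caco-2 label. Methylation was not measured, so nothing about its state follows from these letters.

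The members of 38 gene lists are described next by how many were measured, tested and called, beside 19.4% higher in HCT116 and 19.8% higher under the Caco-2 label over all genes. A member that passed the filter through 1 bright line alone had to differ, so these counts describe the members and carry no test. A list was taken to lie to one side where its median passed 0.25 in the same direction with both siRNAs. By this rule 9 of the 37 lists with tested members lay lower in HCT116 and 3 lay higher. The 9 include the blood cell markers (4 tested) and the 3 include the neuronal markers (6 tested), which are short lists of other cell types.

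**Figure D4:**
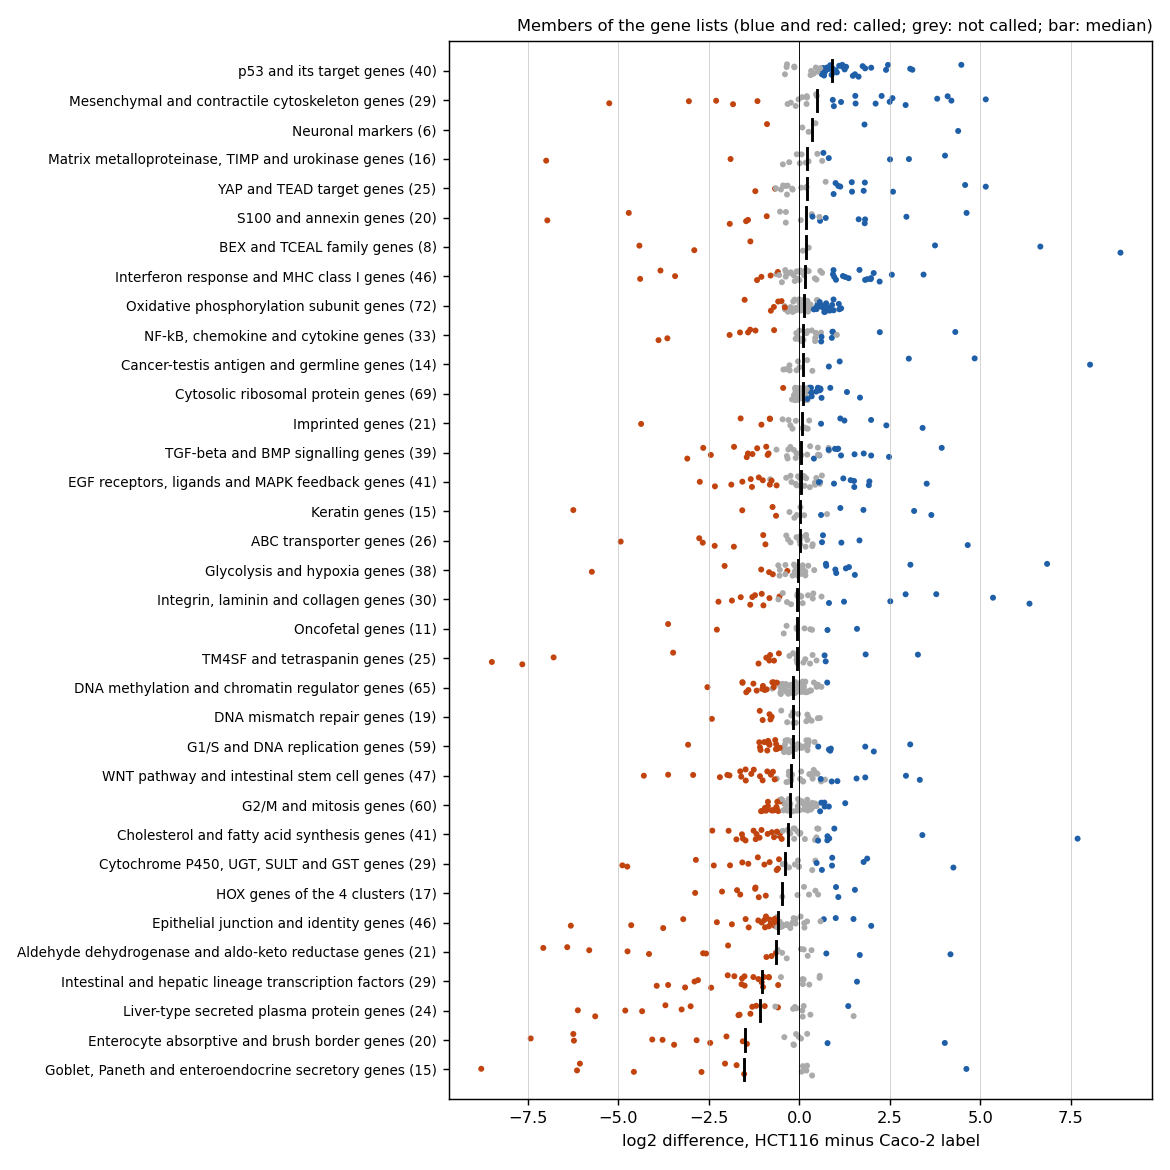
Log2 difference between the lines, HCT116 minus Caco-2 label (x axis), for the tested members of each gene list with at least 5 such members; each point is a gene as measured, blue and red points passed the limma test, grey points did not, the black bar is the list's median, and the number of tested members is in parentheses. p53 target genes have the highest median, 0.90, with no red point, and secretory, enterocyte, liver-type and lineage factor genes have the lowest, from -1.52 to -1.04.

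Lineage regulators came first in the order of roles. Of 40 measured intestinal and hepatic transcription factor genes, 29 were tested, and 20 of these were higher under the Caco-2 label and 1 in HCT116, with a median of -1.04. FOXA1, a pioneer factor of endoderm, read 9.74, 9.92, 5.60 and 6.18, a difference of -3.94 ± 0.19 (adjusted p = 3.31e-05). ASCL2, the master regulator of intestinal stem cells, read 8.36, 8.54, 5.02 and 4.64 and was at least 9.95-fold lower in HCT116 (adjusted p = 6.69e-05). GATA6, at 9.85, 9.36, 7.56 and 6.79, was 5.41-fold lower, and FOXA2 at least 4.06-fold lower. The bile acid repressor gene NR0B2 differed by -3.16 and the goblet cell factor gene SPDEF by -1.98. CDX2, the caudal factor of intestinal identity, was the 1 member that went the other way: it read 5.77, 5.19, 7.23 and 6.91, a difference of 1.59 ± 0.20 (adjusted p = 0.00154). CDX2 was dim on the arrays labelled Caco-2.

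Enterocyte genes were split between bright and unread. Of 55 measured, 20 were tested, with 11 higher under the Caco-2 label and 2 in HCT116 and a median of -1.50. VIL1, the actin bundler of microvilli, read 9.57, 9.33, 3.68 and 2.77, at least 19.9-fold lower in HCT116 (adjusted p = 1.37e-05), and differed by -2.87 with all probe sets averaged against -6.22. The dipeptidyl peptidase gene DPP4 read 9.27, 9.55, 6.15 and 5.76 and was 11-fold lower (adjusted p = 8.62e-05). The glucose transporter gene SLC2A2, at 6.75, 7.51, 3.84 and 4.74, was at least 3.97-fold lower. The 2 members higher in HCT116 were CYBRD1, the duodenal iron reductase, at 4.04, 3.66, 7.64 and 8.08 and at least 7.59-fold, and ESPN, another actin bundler, at 0.78 ± 0.19 (adjusted p = 0.0181). MUC13, a membrane mucin, read 8.68, 7.82, 4.58 and 4.37, at least 8.65-fold lower in HCT116 (adjusted p = 7.38e-05). Its promoter was the 1 promoter among called enterocyte and liver-type members that held letters of HNF1 or HNF4 (CAAAGTCCA), searched on both strands, and is shown for that reason (chr3:124934702-124935001, minus strand, RefSeq GRCh38.p14), with the HNF4 letters, read from the opposite strand, in capitals, the first of them 51 bases before the start.
MUC13: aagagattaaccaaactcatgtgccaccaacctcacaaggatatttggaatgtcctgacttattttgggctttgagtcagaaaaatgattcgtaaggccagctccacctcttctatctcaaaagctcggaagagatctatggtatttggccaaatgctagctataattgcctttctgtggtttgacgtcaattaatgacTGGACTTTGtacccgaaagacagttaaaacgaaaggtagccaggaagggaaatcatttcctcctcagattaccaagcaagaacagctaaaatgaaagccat
Over all tested genes 0.26% of promoters held the HNF4 letters and 0.152% the HNF1 letters. Among genes called higher under the Caco-2 label these shares were 0.434% and 0.271%, and among those higher in HCT116 0.179% and 0.238%. The letters of CDX factors, TTTATNG, were in 6.56% and 7.03% of the same groups and in 5.91% of all promoters of tested genes. For the letters of AP-1, TGANTCA, the shares were 5.37% and 4.29% in the same order, beside 4.41% of all promoters of tested genes. TEAD letters, GGAATG, stood in 11.3% of the promoters of genes higher under the Caco-2 label, in 10.6% for HCT116 and in 10.8% of all. The letters TGATAA, bound by factors such as GATA6, were in 3.85% and 3.69% of the 2 groups and in 3.34% of all. A match is a stretch of letters and does not show that a factor bound there.

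Plasma proteins of the liver type, which gut and liver epithelium share, followed the same split. Of 68 measured, 24 were tested, 14 were higher under the Caco-2 label and 1 in HCT116, and the median was -1.07. SERPINA1 read 11.47, 11.89, 6.22 and 5.86, with all 4 bright probe sets in the same direction. The lipid-binding gene APOH read 9.58, 10.19, 3.38 and 4.16 and was at least 26.9-fold lower in HCT116 (adjusted p = 7.36e-06). Coagulation factor V, F5, read 9.15, 9.55, 4.72 and 4.37, at least 18.5-fold lower (adjusted p = 3.08e-05). The apolipoprotein gene APOC1, angiotensinogen (AGT) and the hepatokine gene FGL1 were at least 12.6-fold, 7.94-fold and 5.05-fold lower, APOC1 at -1.59 with all probe sets averaged against -3.70. APOE, at 6.17, 5.90, 5.97 and 6.28, did not pass the test (adjusted p = 0.778), and its arrays overlapped between the lines.

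Secretory lineage genes were the list with the lowest median, -1.52, from 15 tested of 44 measured, 8 higher under the Caco-2 label and 1 in HCT116. The median was -2.03 with control siRNA and -0.94 with BORIS siRNA. Over both it was 0.076 with no filter and 0.011 with a filter at the background level, so it rests on the members bright enough to test. Beside LYZ and AGR2, the trypsin inhibitor gene SPINK1 read 9.37, 9.21, 2.82 and 3.48, at least 17.8-fold lower in HCT116 (adjusted p = 1.89e-05), and AGR3, a relative of AGR2, was at least 6.11-fold lower. The granin gene SCG2 of neuroendocrine vesicles was the member higher in HCT116, at 2.85, 3.15, 7.25 and 7.97 and at least 6.39-fold (adjusted p = 4.51e-05). The R-spondin receptor gene LGR5 read 7.25, 6.97, 2.69 and 2.95, at least 3.93-fold lower in HCT116 (adjusted p = 8.62e-05), and its relative LGR4 was 7.64-fold lower. The ubiquitin ligase genes RNF43 and ZNRF3, which remove WNT receptors, differed by -2.19 and -1.99. Of 47 tested WNT and stem cell genes, 18 were higher under the Caco-2 label and 7 in HCT116, among the latter the ligand gene WNT16 (at least 7.02-fold) and the receptor gene ROR2 (at least 5.80-fold). The median of this list, -0.24, puts it to neither side. MYC, at 11.85, 11.84, 11.61 and 11.37, did not pass the test (-0.36 ± 0.12, adjusted p = 0.0581).

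Adhesion genes differed between the lines, with epithelial and mesenchymal members in both directions. Of 46 tested epithelial junction and identity genes, 20 were higher under the Caco-2 label and 4 in HCT116, with a median of -0.59, which was -0.33 with control siRNA and -0.68 with BORIS siRNA. CLDN2 read 11.67, 11.56, 5.21 and 5.40. The gap junction gene GJB1 read 8.70, 8.86, 4.20 and 4.07, at least 12.5-fold lower in HCT116, and the claudin genes CLDN3 and CLDN1 were 9.23-fold and at least 4.40-fold lower. EPCAM, at 12.83, 12.82, 12.10 and 12.18, differed by -0.69 ± 0.09 (adjusted p = 0.0022). CDH1, the E-cadherin gene of adherens junctions, was higher in HCT116, at 7.01, 7.64, 9.61 and 9.01 (1.98 ± 0.30, adjusted p = 0.00306), as was the P-cadherin gene CDH3 (1.49 ± 0.21, adjusted p = 0.00255). Keratins, the intermediate filaments of epithelium, went both ways, with 5 of 15 tested higher in HCT116, among them KRT23 at 5.59, 5.73, 8.70 and 8.96, and 4 higher under the Caco-2 label, led by KRT20.

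Of 29 tested mesenchymal and contractile genes, 14 were higher in HCT116 and 5 under the Caco-2 label, and the median was 0.48. The receptor kinase gene AXL read 3.66, 3.71, 9.41 and 8.25, at least 14.8-fold higher in HCT116 (adjusted p = 6.76e-05), and differed by 2.86 with all probe sets averaged against 5.15. The crosslinking oxidase gene LOXL2 read 4.09, 4.12, 8.32 and 7.51, at least 7.86-fold higher, and the caveolin gene CAV1 read 8.08, 8.99, 11.37 and 11.57, 7.64-fold higher. VIM, the vimentin filament gene, was low in both lines, at 5.81, 6.57, 7.23 and 7.45 (1.15 ± 0.21, adjusted p = 0.00683). The proteoglycan gene VCAN split the arrays labelled Caco-2, at 3.89 and 6.01, both below the 9.20 and 9.10 of HCT116. On the other side, fibronectin, FN1, at 9.13, 9.01, 5.90 and 6.14, was 8.28-fold lower in HCT116, and TGFBI, an extracellular matrix gene, at least 17.1-fold lower. Markers of fibroblasts were at background on all 4 arrays in 11 of 11 cases, and their mean level was 3.65, 3.55, 3.65 and 3.72. Collagen VI and XII genes were nonetheless read in HCT116: COL12A1 was at 3.49, 3.22, 9.20 and 8.21, at least 13.6-fold higher. Urokinase, PLAU, which activates plasmin, was 8.14-fold higher in HCT116 and tissue plasminogen activator, PLAT, at least 9.56-fold higher, while MMP7 was higher under the Caco-2 label. S100A4, a calcium-binding protein of motile cells, read 8.0, 8.32, 12.81 and 12.74 and was 24.5-fold higher in HCT116 (adjusted p = 1.09e-05), opposite to S100P.

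p53 target genes showed the most one-sided pattern. p53 halts the cell cycle and starts repair or cell death after DNA damage through genes it binds and activates. Of 43 measured genes of the list, 40 were tested, and 29 of these (72.5%) were higher in HCT116 and 0 higher under the Caco-2 label, against 19.4% and 19.8% of all genes. The median was 0.90 over both siRNAs, 0.87 with control siRNA and 0.95 with BORIS siRNA. TP53INP1, a stress-induced partner of p53, read 5.44, 5.16, 9.95 and 9.59, a difference of 4.47 ± 0.18 (adjusted p = 1.59e-05), and 2.57 with all probe sets averaged. The cell cycle inhibitor gene CDKN1A read 9.12, 8.78, 12.35 and 11.67, 8.34-fold higher in HCT116 (adjusted p = 3.97e-05). The death genes PMAIP1, at 7.87, 7.88, 10.95 and 11.04, and FAS, at 7.12, 6.96, 8.56 and 9.02, were 8.69-fold and 3.36-fold higher. These 4 were picked with their values known, so their arrays lying apart between the lines is no separate result. MDM2, the ligase that degrades p53, read 7.0, 7.32, 8.73 and 8.86 (1.63 ± 0.18, adjusted p = 0.000878), and RRM2B, which supplies nucleotides for repair, was higher in all 9 of its bright probe sets (2.39 ± 0.17). BAX (0.33 ± 0.18, adjusted p = 0.193) and GDF15 (-0.40 ± 0.16, adjusted p = 0.0917) did not pass the test. RPS27L, a ribosomal protein gene that p53 also activates, was 2.49-fold higher in HCT116.

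Of 19 tested genes of DNA mismatch repair, which corrects copying errors, 6 were higher under the Caco-2 label and 0 in HCT116. Their median, -0.18, puts the list to neither side. MSH3, which recognises insertion loops, read 7.63, 7.70, 5.10 and 5.41, a difference of -2.42 ± 0.19 (adjusted p = 0.000237). MSH6, which recognises single mismatches, read 10.06, 10.31, 9.09 and 9.10 (-1.09 ± 0.17, adjusted p = 0.00334). The other 4 were the polymerase delta genes POLD4, POLD1, POLD2 and POLD3, at -1.01 to -0.76. Without the Caco-2-labelled control array the calls of POLD2 and POLD3 were lost, and without the Caco-2-labelled BORIS siRNA array those of POLD1 and POLD3.

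Signalling lists held strong differences in both directions. YAP and TEAD target genes, read-outs of the Hippo pathway, had 11 of 25 tested higher in HCT116 and 2 under the Caco-2 label, with a median of 0.94 with control siRNA and -0.02 with BORIS siRNA. Of its members, AMOTL1 was at least 4.84-fold higher in HCT116, and CCN2, at 4.70, 4.60, 7.12 and 5.80, was at least 2.87-fold higher, with a lower value on the BORIS siRNA array. TGF-beta and BMP genes were divided, 12 of 39 higher in HCT116 and 11 under the Caco-2 label. ID3, a BMP-induced inhibitor, read 5.51, 4.78, 8.98 and 9.17 and was at least 15.1-fold higher in HCT116, and the decoy receptor gene BAMBI, at 10.90, 10.24, 7.84 and 7.12, was 8.54-fold lower. The mediator gene SMAD4 was 2.06-fold higher and the receptor gene TGFBR2 2.24-fold lower in HCT116. MAPK feedback was split by gene: the phosphatase gene DUSP4 read 6.62, 6.85, 10.32 and 10.19, 11.4-fold higher in HCT116, while the immediate early genes FOS and JUN were 5.03-fold and 3.68-fold lower. The receptor gene ERBB3 differed by -2.75, but by -0.07 without _x_at and _s_at probe sets (adjusted p = 0.797), so its call rests on 1 kind of probe set. The proteasome genes PSMB8 and PSMB9, neighbours that serve antigen presentation, went opposite ways: PSMB8 read 8.31, 8.11, 3.66 and 3.96, at least 8.38-fold lower in HCT116, and PSMB9 read 5.66, 5.12, 8.08 and 7.80, 5.87-fold higher.

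Detoxification genes favoured the arrays labelled Caco-2. Of 21 tested aldehyde dehydrogenase and aldo-keto reductase genes, 11 were higher there and 3 in HCT116, with a median of -0.65, which was -0.35 with control siRNA and -0.90 with BORIS siRNA. ALDH1A3, which makes retinoic acid, was the large exception, at 8.42, 8.30, 12.67 and 12.40 and 18.0-fold higher in HCT116 (adjusted p = 1.11e-05). Its relative ALDH1A1, at 7.25, 5.84, 3.96 and 3.98, was at least 2.65-fold lower. Of 29 tested cytochrome P450 and conjugation genes, 13 were higher under the Caco-2 label and 7 in HCT116. CYP1B1 read 10.34, 10.52, 5.24 and 5.85, 29.6-fold lower in HCT116, and CYP3A5 was at least 11.4-fold lower, while the vitamin D hydroxylase gene CYP24A1 was at least 10.8-fold higher. In lipid synthesis, the desaturase gene FADS1 and the elongase gene ELOVL5, which act on polyunsaturated fatty acids, were at least 9.86-fold and 42.8-fold higher in HCT116. The sterol enzyme gene SQLE and the acyl-CoA synthetase gene ACSL1 were 3.87-fold and 5.29-fold lower. Of the 41 tested genes of this list, 18 were higher under the Caco-2 label and 7 in HCT116. Glycolysis and hypoxia genes called numbered 15 of 38 (39.5%), near the 39.2% of all genes, with BNIP3 and the peptide hormone gene ADM (8.37-fold) higher in HCT116 and the carbonic anhydrase gene CA12 at least 37.5-fold lower.

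Among genes of core machinery, the share called ran from 24.6% of chromatin regulator genes to 41.7% of oxidative phosphorylation genes, beside 39.2% of all genes tested. Ribosomal protein genes had a median of 0.09, and 17 of 69 tested were higher in HCT116 and 1 lower. Oxidative phosphorylation genes had a median of 0.12, 24 of 72 higher in HCT116 and 6 lower, with NDUFB10 of complex I at 10.20, 10.01, 11.42 and 11.10 and SDHA of complex II at -1.51 ± 0.15 (adjusted p = 0.000663). S-phase genes had 15 of 59 higher under the Caco-2 label and 7 in HCT116, and mitosis genes 18 of 60 and 6. Largest among them was CDC45, a part of the replicative helicase, at 10.52, 10.53, 7.27 and 7.63, 8.41-fold lower in HCT116 (adjusted p = 7.03e-05). The cyclin genes CCNE2 and CCND1 were 4.16-fold and 3.53-fold higher in HCT116. Chromatin regulator genes were called in 16 of 65 cases, 15 of them higher under the Caco-2 label, such as the methyltransferase gene DNMT3A, at 7.39, 7.54, 5.56 and 4.29 and at least 4.27-fold lower in HCT116, and the Polycomb gene SUZ12, at 11.02, 11.19, 9.56 and 9.72.

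Position in the genome, which played no part in choosing the genes tested, was described last. Tested genes were put in the order of the RefSeq gene table, and stretches of at least 4 neighbours called in the same direction were counted; no coordinates are given because the array's build is not given in the sources used here. There were 114 such stretches with 561 of 11157 placed genes, 64 higher in HCT116 and 50 under the Caco-2 label, and 20 held 6 genes or more. The longest ran from AATF to LASP1 and held 18 genes, all higher under the Caco-2 label as the rule for a stretch requires. Their median difference was -1.71 (-3.21 to -0.45). AATF itself read 10.91, 10.86, 9.28 and 9.14, a difference of -1.67 ± 0.15 (adjusted p = 0.000423). The acetyl-CoA carboxylase gene ACACA of fatty acid synthesis and RPL23, the 1 ribosomal protein gene that was lower in HCT116 (-0.45 ± 0.07, adjusted p = 0.00392), lie in it.

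From DGCR2 to CRKL, 2 stretches of 13 and 11 genes were joined across DGCR8 into 1 of 25 tested genes, with a median difference of -1.56. By that choice 24 of the 25 were higher under the Caco-2 label. DGCR8, a partner of Drosha in microRNA processing, was the exception at 7.46, 7.48, 7.79 and 7.57 (0.21 ± 0.18, adjusted p = 0.407). CDC45 lies in this stretch, as do the histone chaperone gene HIRA, at 11.12, 10.83, 8.61 and 7.34, and TXNRD2, the mitochondrial thioredoxin reductase, at 10.20, 10.06, 7.12 and 6.46. Of the 12 nearest tested genes beside this stretch, 6 on each side, 0 were called lower in HCT116, and of the 12 beside the stretch from AATF to LASP1, 5 were. The ends were set where calls stopped, so the nearest gene on each side was by construction not called lower in HCT116. The 2 stretches shown were picked for display after the values were seen. A stretch of 12 genes from RNF135 to MYO1D had a median of -1.36, with NF1, the RAS inhibitor neurofibromin, at 9.36, 9.73, 5.60 and 5.33, and with SUZ12. In the other direction, 9 genes from ERICH5 to POLR2K, with STK3, VPS13B and COX6C, had a median of 1.10, and 7 genes from CIBAR1 to VIRMA one of 1.39. Zinc finger genes made up most of 2 shorter stretches higher under the Caco-2 label, the 7 genes from CHFR to ZNF268 with a median of -1.80 and the 6 genes from ZNF577 to ZNF432 with -2.73.

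**Figure D5:**
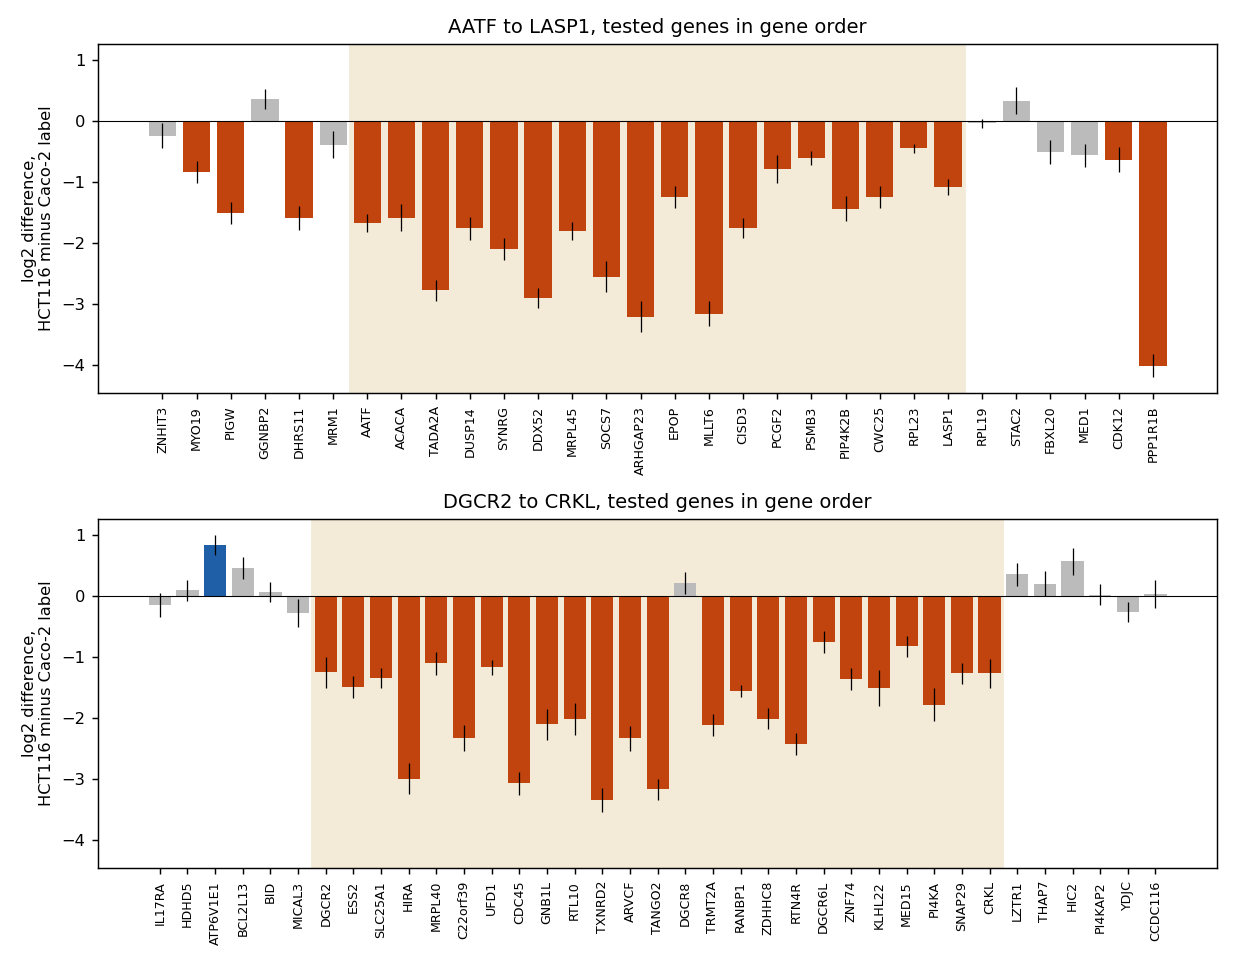
Log2 difference, HCT116 minus Caco-2 label, with its standard error from limma (y axis) for tested genes in the order of the gene table (x axis), for the stretch from AATF to LASP1 (top) and from DGCR2 to CRKL (bottom), shaded, with the 6 tested genes on each side; red and blue bars passed the test and grey bars did not. The shaded areas were chosen as runs of called genes, so 18 of 18 and 24 of 25 genes in them are lower in HCT116. Differences of the genes beside the lower stretch lie on both sides of 0.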

How the data were processed

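Total RNA of 4 samples, 1 for each line and siRNA, was labelled with a 3′ in vitro transcription kit, per the labels' protocols, and hybridised to PrimeView arrays. The authors deposited log2 expression values for 49395 probe sets, a unit that follows from their range, and how these were background-corrected, normalized and summarised is not given in the sources used here. The platform's annotation paired 44988 probe sets with 1 gene. Values were used as deposited. The line difference was fitted with limma (version 3.58.1, R 4.3.3) by lmFit and a trended eBayes, with the 4 arrays in 1 fit and siRNA as a block, and p-values were adjusted by Benjamini-Hochberg over 11165 genes. The fit has 1 residual degree of freedom, to which the prior added 5.49. The methods were tested on simulated data. The number of arrays limits the precision, and no sequencing depth applies.

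The members and the gene lists were chosen with earlier results of these data known. The background level, the CpG description and its printed promoters, and the 2 stretches drawn were chosen after values were seen. Named genes were a fixed set, the 15 called genes per direction with the largest difference, members drawn from the up to 6 largest of each list, and members of stretches of neighbours. FAS, BAX, GDF15, MDM2, CDH3, ESPN, SLC2A2, APOE and most genes of the label check were named beyond that rule, after their values were seen. Some genes of the lists, among them several that define these lines, are not analysed here. Alternatives were other filters, probe set rules, normalizations, limma settings, background levels and leaving out each array.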

Additional observations from a re-analysis of the deposited data

Results flagged for a closer look

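The poly-A spike-in controls, added to the RNA before labelling and outside the gene comparison, were brighter on the HCT116 arrays than on the arrays labelled Caco-2 with the same siRNA. Their 24 probe sets averaged 7.57 on the HCT116 array with control siRNA, against 6.78 under the Caco-2 label, and 8.44 on the HCT116 array with BORIS siRNA, against 6.71. The hybridisation controls (18 probe sets) ran the same way, at 10.5 and 10.8 in HCT116 and 10.1 and 10.1 under the Caco-2 label.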

How the results depend on the processing

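The counts of genes called higher in HCT116 and under the Caco-2 label, 2161 and 2212, stayed within 1.5 times under other filters, probe set rules, normalizations and limma settings, except when a difference of at least 1.5-fold was tested, which called 777 and 792. Leaving out 1 array gave 1329 to 2471 and 1295 to 2845 calls; the lowest counts came without an array labelled Caco-2, and with 1 array of a line left, that array was assumed to vary like the others. The arrays are paired by siRNA, and without that block the counts were 2121 and 2153. Quantile normalization gave 2807 and 2426 calls and shifted the median of all genes to 0.07, and the share of calls higher in HCT116 ran from 46.5% to 53.6% over all settings. Of the 4373 calls, 8 had the other sign with all probe sets of a gene averaged, 21 without _x_at and _s_at probe sets and 1 after quantile normalization. The number was 0 after cyclic loess, with 16 added on the linear scale, and with 1 array left out. Other filters, other limma settings and dropping the siRNA block leave each difference as it was, so no sign could change there. Without _x_at and _s_at probe sets the calls of ABCC3, BNIP3L, ERBB3, HDAC8 and NDRG1 were lost. HMGA2 turned to -0.038 with all probe sets averaged, and the median of secretory genes turned to 0.076 without a filter and 0.011 with a filter at the background level; the cause was not tested. Among leave-one-out values, 38 list medians moved by more than the SD of the 2 siRNA pairs and 102 did not. Under the other settings 58 list medians moved, and 43 calls of named genes were lost. The 360 list medians that did not move there are no measure of stability. Some come from fits without the siRNA block, without the trend or with robust limma, which leave every difference unchanged. Others are medians with 1 siRNA alone, which were checked only for a change of sign. Signal near background limits what can be said of dim genes.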

Other observations

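Members of further families are given beside the 19.4% of all tested genes that were higher in HCT116 and the 19.8% higher under the Caco-2 label. The brain-expressed X-linked genes and their TCEAL relatives had 3 of 8 tested members higher in HCT116 and 3 under the Caco-2 label. BEX2, next to BEX3 in size, read 3.20, 2.51, 9.60 and 9.41 (same order of arrays as above) and was at least 23.7-fold higher in HCT116 (adjusted p = 1.04e-05 in limma), and TCEAL8 was 13.4-fold higher. TCEAL1, at 8.94, 9.17, 4.32 and 4.96, was at least 15.1-fold lower, with TCEAL3 at least 4.16-fold lower. Of 14 tested cancer-testis and germline genes, 5 were higher in HCT116 and 0 under the Caco-2 label. The share called, 35.7%, lay near the 39.2% of all genes, and 31 of 49 measured were at background on all 4 arrays. PRAME read 2.99, 3.29, 8.30 and 7.65, at least 8.21-fold higher in HCT116, and MAGEB1 was at least 3.39-fold higher.

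HOX genes, which mark position along the body axis, had 8 of 17 tested higher under the Caco-2 label and 3 in HCT116, with HOXB9 at 10.42, 10.21, 8.36 and 8.0 (-2.13 ± 0.17, adjusted p = 0.000226 in limma) and HOXD8 at 5.22, 5.42, 6.45 and 7.26 (1.53 ± 0.23, adjusted p = 0.00328). Among 26 tested ABC transporters, 7 (26.9%) were higher under the Caco-2 label and 5 (19.2%) in HCT116, beside 19.8% and 19.4% of all genes. The chloride channel gene CFTR, at 7.92, 8.36, 3.49 and 2.93, was at least 8.01-fold lower in HCT116, and the bile salt and drug exporter gene ABCC2, at 4.82, 4.63, 9.47 and 9.27, at least 21.6-fold higher. The peptidase gene ERAP2 was at least 17.2-fold lower in HCT116, and the imprinted growth suppressor gene DIRAS3 at least 3.44-fold higher. Of markers of other cell types, the neuronal genes SYT1 (at least 8.21-fold) and MAP2 (at least 2.49-fold) were higher in HCT116, and GAD1, the endothelial junction gene ESAM (7.68-fold) and the blood cell gene ITGAM (at least 1.30-fold) were higher under the Caco-2 label, the call of GAD1 being lost without the Caco-2-labelled control array or the HCT116 array with BORIS siRNA. The other endothelial markers tested did not pass the test, TIE1 at a difference of 0.26 (adjusted p = 0.403) and VWF at 0.35 (adjusted p = 0.311). Neither did the neuronal genes SNAP25 (adjusted p = 0.174), TUBB3 (adjusted p = 0.801) and RBFOX3 (adjusted p = 0.529). The blood cell genes HBB (adjusted p = 0.846) and CD68 (adjusted p = 0.342) also did not pass. Of 4 tested blood cell markers, 2 were higher under the Caco-2 label, ITGAM being 1 of them.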
